A study of Arabidopsis thaliana with 26 samples.

Results

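The cytosolic 40S ribosomal protein genes of Arabidopsis thaliana were followed in leaves of plants given elevated CO2 at ambient light. A total of 58 loci coding for 21 proteins of the 40S subunit were listed, and a probe set, the group of short oligonucleotides that reads one transcript on an ATH1 array, was taken as a member where the platform annotation paired it with a single listed locus. This gave 33 loci with a probe set of their own out of 22810 probe sets, and 31 of these, for 16 proteins, were bright enough to be tested. Another 10 loci were read by 5 probe sets that each name several loci, which are called shared probe sets and are kept out of the counts. No probe set was listed for the other 15 loci, and RPS6 and RPS18 were among the proteins not analysed here. The annotation gives most members only a locus code, and loci were grouped into proteins by the standard nomenclature of the species.

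All plants were accession Col-0 (stock N1092), raised in compost in a growth room at 20 °C, 50% humidity and 10 h of light. Total RNA came from developing leaves, given by the labels as leaf insertions 19 to 21, after 2, 4, 12, 24, 48 and 96 h of treatment (4 arrays each), and from mature leaves after 24 h (2 arrays). Every group had the same CO2 and light treatment, so the comparisons are between times and between leaf stages and not between treated and untreated plants. The labels number the replicates without saying that they were separate plants, so the p-values reflect variation among the arrays, part of which may be technical. Neither the clock times of harvest nor which leaves were exposed are stated in the labels. Hours of treatment therefore cannot be told apart from time of day or from ageing of the developing leaves.

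The small ribosomal subunit binds the messenger RNA and, with initiation factors, finds the start codon and checks the pairing of tRNA anticodons with codons. Its proteins are made in matched amounts with the ribosomal RNA, and in plants each is encoded by a small family of paralogous genes whose products can replace one another to differing degrees. Young leaves, in which cells divide and grow, are known for high expression of ribosomal protein genes.

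Bright members included AT5G15200 (RPS9) and AT2G41840 (RPS2), with mean signals over the 26 arrays of 2537 and 2512, and dim members AT3G04230 (RPS16) and AT5G39850 (RPS9), with 89.6 and 125. Signal values were linear, scaled by the authors to a common trimmed mean, and were analysed as log2(value + 16), so that differences of dim probe sets are understated. A gene was called when its adjusted p in limma, a linear model fitted to all 16154 tested probe sets, was under 0.05. Within groups the arrays correlated at 0.956 to 0.987 across tested probe sets. The first 24 h and the first 48 h array stood apart in the bacteriophage cre spike-in, at 6451 and 6745 against a median of 2356 over all arrays, and in a 25S ribosomal RNA control probe set, at 4449 and 1571 against a median of 67.7. The first 96 h array reached 1536 in the ribosomal RNA control with a spike-in of 2433. Without the 2 arrays with a high spike-in, 23 of the 31 40S genes were called lower at 12 h against 2 h in place of 20, 5 at 24 h against 2 h in place of 4, and 21 higher and 1 lower at 24 h against 12 h in place of 22 and 1; the counts at 96 h against 24 h (18) and in mature leaves (30) were the same. Without the first 24 h array alone, 19 were higher and 1 lower at 24 h against 12 h, and 16 were lower at 96 h against 24 h. Shares of all tested probe sets called are given below for the reported fit only, not for these or other alternatives. Signals of different probe sets are not compared as levels, because they depend on each probe set's own sensitivity; only differences between groups are.

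The leaf labels were checked against marker genes, of which few had a probe set of their own. The mesophyll genes AT2G39730 (Rubisco activase) and AT1G32060 (phosphoribulokinase) were bright in every group, with group means of 2452 to 4062 and 1369.6 to 3294. The root hair expansin AT1G12560 had group means of 13.6 to 32.9, about the limit under which a probe set did not count as expressed (24.3 to 32.6, the 40th percentile of an array). The leaf polarity genes AT4G00180 and AT2G26580, active in young leaves, were lower in mature leaves by 1.09 ± 0.13 and 0.40 ± 0.17 (log2, SE). The senescence regulator AT4G23810 and the phloem sugar exporter AT3G48740 were higher in mature leaves by 1.72 ± 0.19 and 2.38 ± 0.16. Of the epidermal genes, AT5G53200 was higher by 0.92 ± 0.16 and AT3G24140 lower by 0.56 ± 0.15. AT1G32060 was higher in mature leaves by 0.56 ± 0.21, AT2G39730 stood at −0.02, and the root gene AT1G12560 was lower by 0.61 ± 0.22. Markers thus differed between leaf stages in both directions, and their part in the 40S result was not tested. In whole leaves, fewer cells of a type and less RNA per cell cannot be told apart.

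The summed signal of the 31 tested genes was high at 2, 4 and 24 h, lower at 12 and 96 h, and lowest in mature leaves. It was 44496 ± 3444 (SD, n = 4) at 2 h, 45753 ± 1445 at 4 h, 34544 ± 1878 at 12 h, 44457 ± 3130 at 24 h, 38300 ± 4282 at 48 h and 34875 ± 1414 at 96 h. Mature leaves gave 18007 ± 217 (n = 2). The 12 h and 96 h arrays reached at most 36949 and 36680, below the lowest 2 h array at 41389 and the lowest 24 h array at 40449, while the 48 h arrays ran from 34784 to 44522 and overlapped both. As a share of all signal on the array the sum was 1.45% at 2 h, 1.17% at 12 h, 1.39% at 24 h, 1.12% at 96 h and 0.582% in mature leaves.

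**Figure D1:**
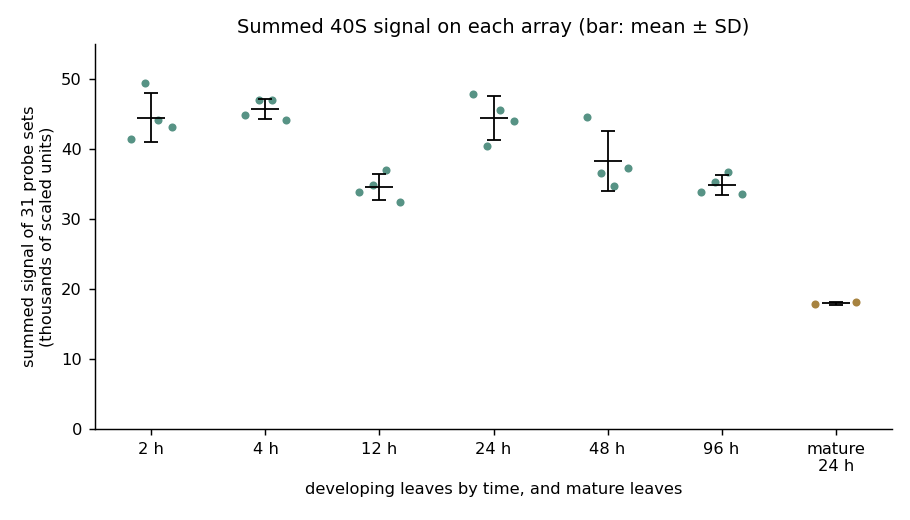
Summed signal of the 31 tested 40S probe sets on each of the 26 arrays, in scaled units, by group (points are arrays, bars are the group mean ± SD). The 12 h and 96 h arrays lie below every 2 h and 24 h array, and the mature arrays, with a mean of 18007, lie lowest.

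Over the 6 times in developing leaves, the F test called 27 of the 31 genes, where it called 50% of all tested probe sets. The range of a gene's group means had a median of 0.58 (log2) over the 31 genes, against 0.44 over all tested probe sets. The lowest of the 6 group means was that of 12 h for 17 genes, 96 h for 13 and 24 h for 1, and the highest was that of 4 h for 14, 2 h for 8, 24 h for 8 and 48 h for 1. The same counts over all tested probe sets are not given. At 4 h against 2 h no gene was called by limma. An unadjusted p under 0.05 was reached by 1 of 31 genes and by 1562 of all 16154 tested probe sets. Of all probe sets 2.04% were called, 1.36% higher and 0.681% lower. Among the genes that did not pass the F test were AT2G41840 (RPS2), AT5G15200 (RPS9) and AT5G52650 (RPS10), with ranges of 0.34, 0.43 and 0.32.

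**Figure D2:**
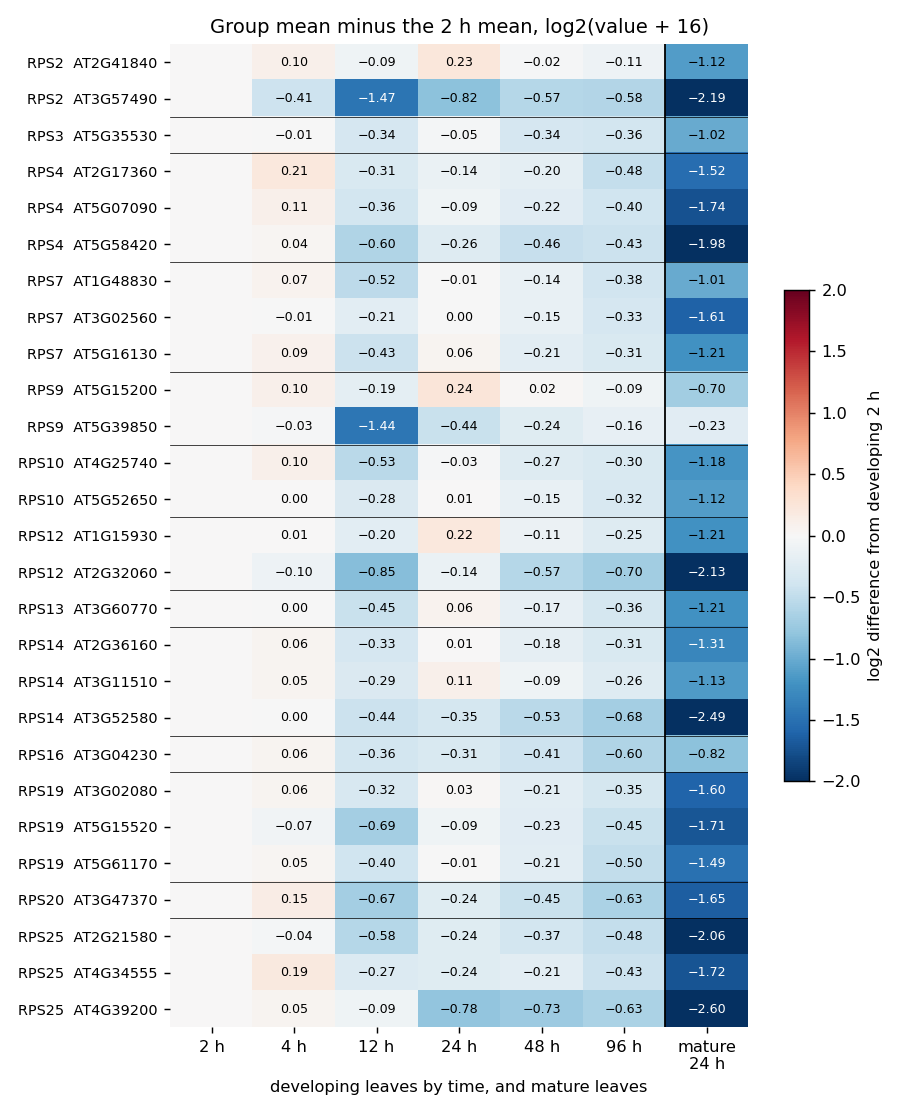
Difference of each group mean from the developing 2 h mean, in log2(value + 16), for 27 of the tested 40S genes ordered by protein, with the mature group in the last column. Columns at 12 h and 96 h are blue in every gene, and AT3G57490 (−1.47) and AT5G39850 (−1.44) are the darkest at 12 h.

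At 12 h, 20 of the 31 genes were lower than at 2 h and none was higher, with 13.5% of all tested probe sets called lower, 15.1% higher and 28.6% in either direction. The median difference of the 31 genes was −0.36, against 0.03 over all tested probe sets. The fitted difference was below 0 in each of the 31 genes and in 7447 of all 16154 tested probe sets. Bright probe sets as a class were also lower at 12 h. The 545 probe sets with a 2 h mean of at least 1000 had a median of −0.22, the 22 40S genes among them −0.34, and the 9 dimmer 40S genes −0.69; the split at 1000 was chosen after the values were seen. When the arrays were forced to a common distribution by quantile normalization, 17 genes were lower, AT2G41840 (RPS2) was called higher at 0.15, and the median became −0.28. Of the markers, the senescence regulator AT4G23810 was called higher at 12 h, by 0.47 ± 0.15, and its part in the result was not tested. Its group means, 15.3 at 2 h and 27.5 at 12 h, lay below and within the expression limit of 24.3 to 32.6.

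RPS2, RPS3 and RPS9 line the channel through which mRNA enters the yeast and mammalian subunit. A paralogue of RPS2 and a paralogue of RPS9 had the widest differences of the 31 genes at 12 h. AT3G57490 (RPS2) had 2 h signals of 611, 666, 599.7 and 686 and 12 h signals of 238, 195, 239 and 215. These groups did not overlap, and the mean was 2.89-fold lower, a log2 difference of −1.47 ± 0.21 (SE, adjusted p = 2.7e-06). AT2G41840, coding for the same protein, had 2 h signals of 2411, 2838, 2409 and 2599.7 and 12 h signals of 2207, 2453, 2819 and 2201. Its groups overlapped and its difference of −0.09 did not pass the test (95% interval −0.36 to 0.19).

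AT5G39850 (RPS9) read 270.3, 153, 134 and 103 at 2 h and 61.6, 34.8, 41.9 and 53.7 at 12 h. The first 2 h array was high, but even the lowest 2 h array was above all 12 h arrays, and the mean was 3.44-fold lower (−1.44 ± 0.18, adjusted p = 6.8e-07). The other RPS9 gene, AT5G15200, had 12 h signals of 1936, 2410.0, 2545 and 2139 against 2367, 3045, 2675 and 2252, a difference of −0.19 with an interval from −0.45 to 0.06. AT5G35530 (RPS3) fell by 0.34 ± 0.10 (adjusted p = 0.008), a call that quantile normalization ended at −0.15. The shared RPS2 and RPS3 probe sets, which mix the signals of other family members, were lower by 0.43 and 0.40 with adjusted p = 0.00089 and 0.031.

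Among proteins of the head of the subunit, the part that swivels as the ribosome moves along the mRNA, AT2G32060 (RPS12) had 2 h signals of 1579, 2179.7, 1634 and 1394 and 12 h signals of 973, 901, 1003 and 817, without overlap, for a 1.84-fold lower mean (−0.85 ± 0.13, adjusted p = 8.6e-06). The RPS19 genes AT5G15520, AT5G61170 and AT3G02080 fell by 0.69, 0.40 and 0.32. AT3G47370 (RPS20), AT2G21580 (RPS25), AT4G25740 (RPS10) and AT3G04230 (RPS16) fell by 0.67, 0.58, 0.53 and 0.36. The other head genes, AT1G15930 (RPS12), AT5G52650 (RPS10), AT4G34555 and AT4G39200 (both RPS25), had differences of −0.20, −0.28, −0.27 and −0.09 that did not pass.

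Among proteins of the body and platform the RPS4, RPS7, RPS13 and RPS14 genes are described. For RPS4, AT5G58420 and AT5G07090 fell by 0.60 and 0.36, and AT2G17360 stood at −0.31 with adjusted p = 0.076. For RPS7, AT1G48830 and AT5G16130 fell by 0.52 and 0.43, and AT3G02560 stood at −0.21 with adjusted p = 0.055. AT3G60770 (RPS13) fell by 0.45, and of the RPS14 genes AT3G52580 and AT2G36160 fell by 0.44 and 0.33 while AT3G11510 stood at −0.29 with adjusted p = 0.059.

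**Figure D3:**
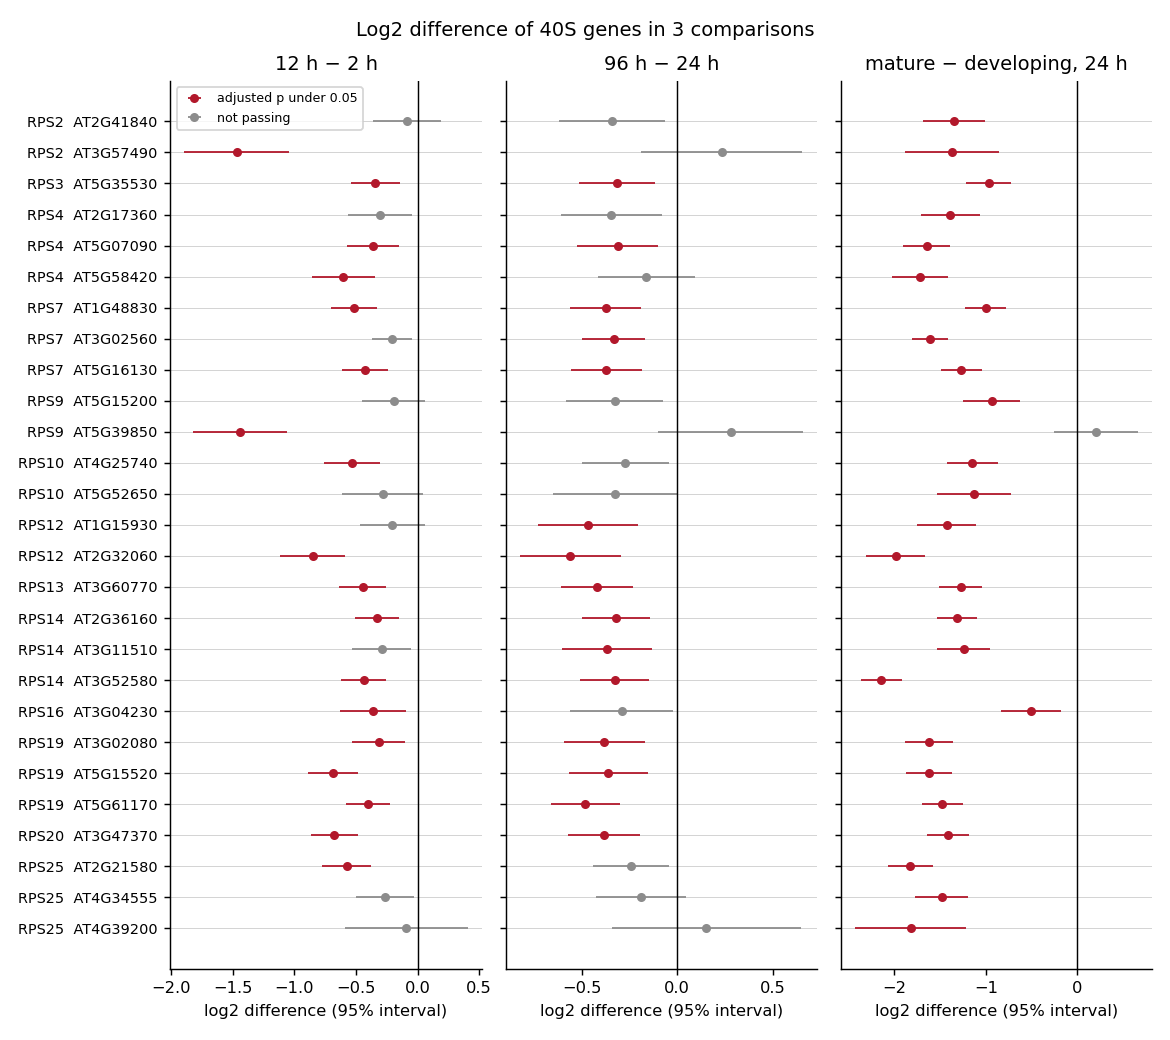
Log2 difference of 27 of the tested 40S genes, each with its 95% interval from limma, for 12 h minus 2 h, 96 h minus 24 h, and mature minus developing leaves at 24 h; red points passed an adjusted p of 0.05. AT3G57490 and AT5G39850 lie far to the left at 12 h, and in mature leaves every gene shown but AT5G39850 lies left of 0.

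At 24 h against 12 h, 22 genes rose and 1 fell, where 13% of all tested probe sets rose, 16.2% fell and 29.3% were called in either direction; the median difference was 0.39 against −0.04 over all. This comparison shares its 12 h arrays with that of 12 h against 2 h. The rise was smaller under quantile normalization, which called 11 genes higher and 3 lower with a median of 0.11 and turned the fitted differences of AT5G35530 (RPS3) and AT5G15200 (RPS9) from 0.30 and 0.43 to −0.04 and −0.03. The 545 bright probe sets had a median of 0.30 in this comparison. The mesophyll genes AT2G39730 and AT1G32060 were higher too, by 0.69 ± 0.17 and 0.44 ± 0.17, the epidermal gene AT5G53200 was higher by 0.43 ± 0.13, and the young leaf gene AT4G00180 was lower by 0.32 ± 0.11; their part in the result was not tested.

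Wide rises were those of AT5G39850 and AT2G32060. AT5G39850 (RPS9) reached 119, 128, 80.7 and 119.7 at 24 h, clear of every 12 h array, a rise of 1.00 ± 0.18 (adjusted p = 0.00013). AT2G32060 (RPS12) reached 1502, 1203, 1629.9 and 1812, a rise of 0.71 ± 0.13 (adjusted p = 9.9e-05). Both rises kept their call under every alternative tried, quantile normalization included. The smallest called rise was that of AT5G07090 (RPS4), at 0.27 ± 0.10 (adjusted p = 0.048). AT3G57490 (RPS2) rose by 0.65 (adjusted p = 0.017), but its 24 h arrays, at 366, 182, 487 and 488, spread from below the 12 h range to above it.

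Against 2 h, 4 genes were lower at 24 h and none was higher, with 4.88% of all tested probe sets called lower, 4.33% higher and 9.21% called in either direction. AT3G57490 stood at −0.82 ± 0.21 (adjusted p = 0.01) and AT3G52580 (RPS14) at −0.35 ± 0.09 (adjusted p = 0.01). The count was 2 when the second 2 h array was left out or when only the 2 groups were fitted. Neither AT3G57490 nor AT3G52580 kept its call in the fit over the 2 groups.

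AT4G39200 (RPS25), also lower at 24 h, moved against the rest between 12 and 24 h. Its signals were 2388, 1700.4, 1707 and 2049.6 at 2 h, 2465, 1479, 1487 and 2030.4 at 12 h, and 1374, 715, 1407 and 1148 at 24 h. The first array was the highest at 2 and 12 h, where the groups overlapped, and all 24 h arrays were below both. At 24 h it was lower than at 12 h by 0.69 ± 0.24 (adjusted p = 0.032) and lower than at 2 h by 0.78 ± 0.24 (adjusted p = 0.04). Leaving out 1 array ended the first call in 4 of 8 cases and the second in 6 of 8. Without the second 24 h array the differences were −0.48 (adjusted p = 0.15) and −0.57 (adjusted p = 0.16). At 48 and 96 h its signals ran from 774 to 1553 and from 897 to 1904, ranges that overlapped those at both 12 and 24 h.

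**Figure D4:**
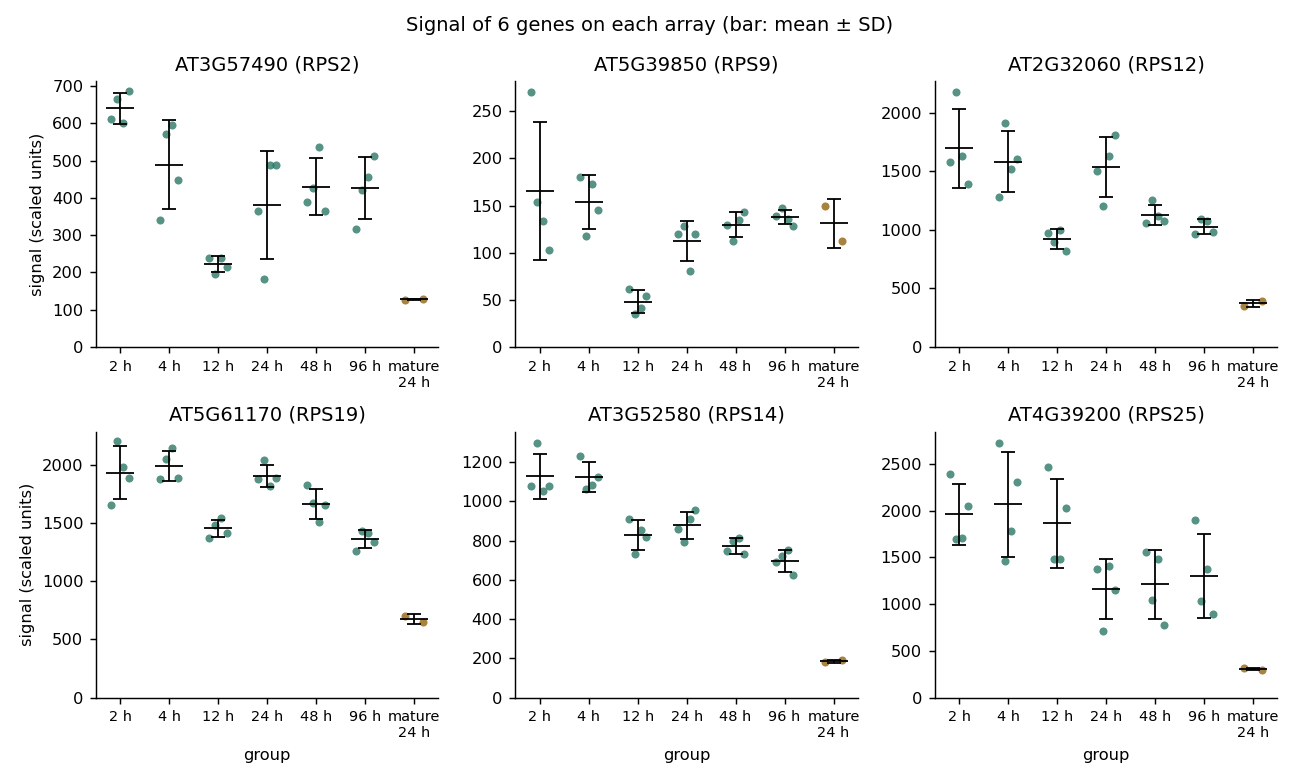
Signal on each of the 26 arrays, in scaled units from 0, for 6 of the 40S genes by group (points are arrays, bars the group mean ± SD). AT3G57490 and AT5G39850 dip at 12 h, AT5G61170 and AT3G52580 have their lowest developing means at 96 h, AT4G39200 is lower from 24 h on, and in mature leaves AT5G39850 alone reads 113 to 149 as in developing leaves.

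At 48 h against 24 h no 40S gene and 0% of all tested probe sets were called by limma, although 13 of the 31 genes and 1655 of all probe sets had an unadjusted p under 0.05. The fitted difference was below 0 for 26 of the 31 genes and for 7278 of all 16154 tested probe sets, with medians of −0.19 and 0.02. With array weights in the fit 6 genes were lower. The 0% belongs to the fit without weights, and the share of all probe sets called with weights is not given.

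At 96 h against 24 h, 18 genes were lower and none was higher, with 7.23% of all tested probe sets called lower, 7.74% higher and 15% called in either direction. The median of the 31 genes was −0.33, against −0.03 over all tested probe sets and −0.17 over the 545 bright ones. AT2G32060 (RPS12) had 96 h signals of 961, 1089, 1078 and 982, clear of its 24 h arrays (−0.56 ± 0.13, adjusted p = 0.0037). Its paralogue AT1G15930 fell by 0.47 ± 0.13 (adjusted p = 0.013), AT5G61170 (RPS19) by 0.48 ± 0.09 (adjusted p = 0.00043) and AT3G60770 (RPS13) by 0.42 ± 0.09 (adjusted p = 0.0027). Small called differences were those of AT5G07090 (RPS4) and AT5G35530 (RPS3), at −0.31 and −0.32. The phloem gene AT3G48740 was higher by 0.55 ± 0.13, the epidermal gene AT5G53200 higher by 0.46 ± 0.13 and the root gene AT1G12560 lower by 0.67 ± 0.18, and their part in the result was not tested.

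Calls at 96 h against 24 h and at 12 h against 2 h, which share no array, were set side by side. Of the 31 genes, 14 were lower in both comparisons, 6 at 12 h with no call at 96 h, 4 at 96 h with no call at 12 h, and 7 in neither. Of all tested probe sets, 13.5% were lower at 12 h and 7.23% at 96 h. The share lower in both is not given, so the overlap is only described. Whether the differences at 12 h and 96 h were unequal was not tested. Of the 4, AT3G02560 (RPS7) and AT3G11510 (RPS14) lay just outside the threshold at 12 h, with limma adjusted p = 0.055 and 0.059. All 3 RPS7 genes and all 3 RPS19 genes were lower at 96 h, by 0.33 to 0.48. The genes with the deepest 12 h dip, AT3G57490 and AT5G39850, stood at 0.23 and 0.28, neither passing the test. Their 96 h signals were 317, 421, 457 and 514, and 139, 147, 136 and 129. Without the fourth 96 h array 10 genes were lower, without the first, which was high in the ribosomal RNA control, 13 were, and a fit over the 2 groups alone gave 10.

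The contrast between leaf stages was the widest. In mature leaves 30 of the 31 genes were lower than in developing leaves at the same 24 h, and all 5 shared probe sets were lower too, where 30.7% of all tested probe sets were lower, 24.1% higher and 54.8% called in either direction. The median difference of the 31 genes was −1.37, against −0.10 over all tested probe sets and −0.67 over the 545 bright ones. Quantile normalization left 30 genes lower with a median of −1.34. Only 2 mature arrays were made, and the fit assumes that they vary like the other groups.

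AT3G52580 (RPS14) had mature signals of 181 and 192 against 24 h signals of 795 to 955 in developing leaves, a 4.72-fold lower mean (−2.14 ± 0.11, adjusted p = 4.4e-15). AT2G32060 (RPS12) read 351 and 392 against 1203 to 1812, a 4.13-fold lower mean (−1.99 ± 0.16, adjusted p = 3e-11). The RPS25 genes AT2G21580 and AT4G39200 both fell by 1.82, with mature signals of 131 and 143 and of 316 and 296. In each of these genes both mature arrays lay far below every developing array of any time.

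At the other end, AT5G39850 (RPS9) was the exception. Its mature signals of 149 and 113 overlapped the developing 24 h signals of 80.7 to 128, and its difference of 0.21 did not pass (95% interval −0.26 to 0.67), an interval that leaves out the median of the other genes. The smallest difference among called genes was that of AT3G04230 (RPS16), at −0.51 ± 0.16 with mature signals of 47.6 and 67.5. The other RPS9 gene, AT5G15200, fell by 0.94 ± 0.15 with mature signals of 1571 and 1580.3.

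Paralogues of the same protein were compared through the log2 ratio of their signals on each array, in which any scaling factor of the array cancels for bright genes. The 31 genes formed 20 pairs in 10 proteins. A permutation test of the 24 developing arrays over the 6 times (100000 resamples of the F statistic) was adjusted over the 20 pairs, and 9 pairs in 7 proteins passed. Each adjusted p of a pair comes from this test over all 6 times. No difference of a ratio between 2 groups was tested. Leaving out single arrays gave 7 to 10 passing pairs. Leaving out all 6 arrays of replicate number 1, 2, 3 or 4 gave 6, 1, 0 and 0 passing pairs with 18 arrays each.

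In RPS2 the ratio of AT2G41840 to AT3G57490 had the widest range of group means, 1.38 on the log2 scale (adjusted p = 0.0093). The 2 h arrays had log2 ratios of 1.95, 2.07, 1.98 and 1.90 and the 12 h arrays 3.13, 3.55, 3.47 and 3.26, without overlap, while the 24 h arrays spread from 2.48 to 3.72. In mature leaves the ratio stood 0.02 above that of developing leaves at 24 h. In RPS9 the ratio of AT5G15200 to AT5G39850 was 1.25 higher at 12 h than at 2 h (adjusted p = 0.0093), and it was 1.14 lower in mature than in developing leaves at 24 h. With 2 mature arrays against 4, an exact permutation test of a ratio cannot pass, so the mature ratios are given as values.

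In RPS12 the ratio of AT1G15930 to AT2G32060 was higher by 0.65 at 12 h than at 2 h (adjusted p = 0.0093) and stood at 0.84 at 24 h and 0.93 at 96 h against 0.49 at 2 h. In mature leaves it was 0.56 higher than in developing leaves at 24 h. In RPS14 the ratios of AT2G36160 and AT3G11510 to AT3G52580 were higher from 24 h on than at 2 h, with ranges of 0.37 and 0.46 (adjusted p = 0.011 and 0.021). In mature leaves they were higher than in developing leaves at 24 h, by 0.83 and 0.90. AT2G36160 and AT3G11510 had the narrowest range of all pairs against each other, 0.10 with an SD within times of 0.13 (adjusted p = 0.85).

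In RPS25 the ratio of AT2G21580 to AT4G39200 was at its lowest at 12 h and 1.03 higher at 24 h (adjusted p = 0.021), as the first gene rose and the second fell. In RPS7, both pairs with AT3G02560 passed. The ratio of AT1G48830 to AT3G02560 was 0.31 lower at 12 h than at 2 h (adjusted p = 0.0093). In mature leaves it was 0.61 higher than in developing leaves at 24 h. AT3G02560 against AT5G16130 had a range of 0.32 (adjusted p = 0.011). AT1G48830 against AT5G16130 had a range of 0.15 and did not pass (adjusted p = 0.42). In RPS19, AT5G15520 against AT5G61170 passed with a range of 0.33 (adjusted p = 0.033), but it passed under only 20 of 34 alternatives. AT3G02080 against AT5G61170, with 0.15, did not pass (adjusted p = 0.36). No pair of RPS4 or RPS10 passed. A p that misses the threshold does not show equal courses, as in AT4G34555 against AT4G39200, with a range of 0.72 and an SD within times of 0.46 (adjusted p = 0.38).

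**Figure D5:**
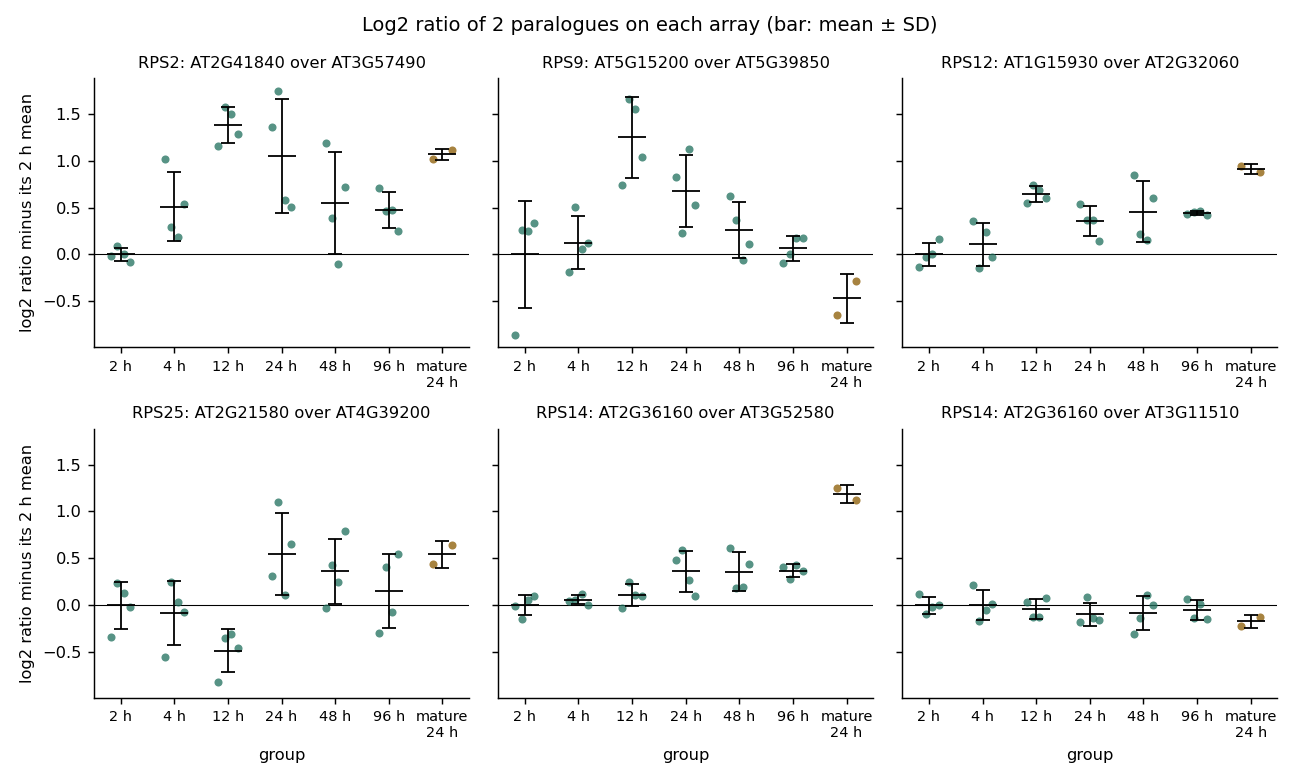
Log2 ratio of 2 paralogues on each of the 26 arrays, minus its mean at 2 h, for 5 pairs that passed the test and, at the lower right, the RPS14 pair with the narrowest range (points are arrays, bars the group mean ± SD). RPS2 and RPS9 peak at 12 h at 1.38 and 1.25, RPS25 is lowest at 12 h, and RPS14 against AT3G52580 is highest in mature leaves.

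Genes outside the 58 loci that take part in making or using ribosomes were taken from lists. Of 31 other 40S loci, 10 had a tested probe set. Of these, 6 were lower at 12 h, 3 at 96 h and all 10 in mature leaves, with medians of −0.34, −0.28 and −1.30; of all tested probe sets 13.5%, 7.23% and 30.7% were lower. The widest were AT1G23410, a ubiquitin extension gene whose tail is RPS27a, at −1.21 ± 0.12 at 12 h and −1.82 ± 0.15 in mature leaves, and AT2G45710 (RPS27) at −0.84 ± 0.10 at 12 h. At 96 h AT3G04840 and AT4G34670 fell by 0.41 and 0.40, and in mature leaves AT3G04920 fell by 1.47 ± 0.12.

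Ribosome biogenesis factors, which process ribosomal RNA in the nucleolus, had 8 tested genes of 27. At 12 h 7 of them were lower, with a median of −0.93, and at 24 h against 12 h 7 were higher, where 13.5% and 13% of all tested probe sets were. AT3G12860, a NOP56-like protein of the box C/D particle, had the widest 12 h difference at −1.54 ± 0.15, followed by AT4G04940 at −1.48 ± 0.15. At 96 h 4 were lower, led by AT2G40360 at −0.50 ± 0.11, and all 8 were lower in mature leaves (7.23% and 30.7% of all tested probe sets), AT5G14520 and AT3G05060 by 1.72 each.

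Of 26 translation initiation and elongation genes, 6 were tested and 5 were lower at 12 h, none at 96 h and 4 in mature leaves, against 13.5%, 7.23% and 30.7% of all tested probe sets. Called in either direction in mature leaves were 66.7% of this list and 54.8% of all probe sets. AT5G12110, an elongation factor 1B subunit, had the widest swing, at −1.85 ± 0.14 at 12 h against 2 h and 1.65 ± 0.14 at 24 h against 2 h. AT1G54270, an eIF4A helicase, fell by 0.76 ± 0.08 at 12 h and 0.80 ± 0.10 in mature leaves, where AT5G19510 fell by 1.16 ± 0.23 and AT5G12110 by 1.35 ± 0.17. Of 11 genes around the TOR kinase, 3 were tested, and AT5G63190 was higher by 0.87 ± 0.12 at 12 h and 0.53 ± 0.15 in mature leaves. AT3G08850 and AT5G01770 were not called in either comparison. Of all tested probe sets, 15.1% were called higher at 12 h and 24.1% in mature leaves. Of 12 genes for the plastid 30S subunit, 2 were tested, AT1G64510 and AT3G13120. Neither passed at 12 h, at 0.19 and 0.03, and both were lower in mature leaves, by 1.01 and 0.91, as were 30.7% of all tested probe sets.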

How the data were processed

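Intensities deposited by the authors were linear ATH1 signals; the submitters' processing notes list MAS5 without a version. On every array they averaged 100 once the highest and lowest 2% were set aside. Probe sets above the 40th percentile of their array on at least 2 of 26 arrays were kept (16154 of 22810, controls left out). limma 3.58.1 (R 4.3.3) was fitted to log2(value + 16) with 7 group means and eBayes(trend = TRUE), with Benjamini-Hochberg adjustment over all tested probe sets; intervals had a median half-width of 0.23 for 40S genes (0.28 for mature leaves). Paralogue ratios were tested by permutation. Both procedures were tested on simulated data.

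Members, gene lists, comparisons and the rule for named genes (widest called differences per comparison, paralogue pairs by range, genes moving against most) were chosen with earlier results of these data known. Names came from the platform annotation: 13513 probe sets had 1 gene, 503 several and 8794 none. Some members are not reported here by name, although counts, medians and sums include them. No coordinates, protein identities or promoter motifs are given. Alternatives were pseudocounts of 4 and 64, no filter, quantile normalization, array weights, a replicate block, smaller fits and left-out arrays.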

Additional observations from a re-analysis of the deposited data

Results flagged for a closer look

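In groups of 4 arrays, the highest or lowest signal was set against the other 3. Of 204 such groups of the 40S genes and shared probe sets reported here and of their summed signal, 11 (5.39%) had an end value whose gap to its neighbour, over the group's range, passed Dixon's 95% critical value, and chance flags about 1 in 20. At 2 h these were AT2G17360 (RPS4) at 1276 on the third array (others 1160.0 to 1177), AT5G16130 (RPS7) at 2105 on the second (others 1831 to 1848) and AT3G52580 (RPS14) at 1299.5 on the second (others 1052 to 1080.3). At 4 h they were AT5G15520 (RPS19) at 321 on the first array (others 357 to 363), AT3G47370 (RPS20) at 1406 on the third (others 1319 to 1333), the shared RPS3 probe set at 1565 on the second (others 1955 to 2033) and the shared RPS16 probe set at 2699 on the fourth (others 3149 to 3227).

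At 24 h, AT5G58420 (RPS4) read 709.6 on the second array (others 1048 to 1110.1). AT3G04230 (RPS16) read 114 on the first 24 h array (others 78.0 to 81.5), which was high in the spike-in and in the ribosomal RNA control. At 48 h the shared RPS3 probe set read 2316 on the first array (others 1399 to 1466), the other array with a high spike-in. At 96 h AT4G34555 (RPS25) read 273 on the second array (others 245.8 to 246.4).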

How the results depend on the processing

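Of the calls reported, 16 of 20 at 12 h against 2 h, 1 of 4 at 24 h against 2 h, 10 of 23 at 24 h against 12 h, 8 of 18 at 96 h against 24 h, 29 of 30 in mature leaves and 26 of 27 in the F test held under every alternative run. Counts moved by over 1.5 times in these cases. A fit over the 2 groups compared gave 2 genes at 24 h against 2 h and 10 at 96 h against 24 h, quantile normalization gave 14 at 24 h against 12 h, and array weights gave 6 at 48 h against 24 h. Shares of all probe sets called under these alternatives are not given. Leaving out each array in turn gave 18 to 20 genes at 12 h against 2 h, 2 to 4 at 24 h against 2 h, 17 to 24 at 24 h against 12 h, 10 to 17 at 96 h against 24 h, 29 to 30 in mature leaves, 26 to 29 in the F test and 0 at 4 h against 2 h and at 48 h against 24 h. Of the 9 paralogue pairs that passed, 0 did so under all 34 alternatives. For paralogue pairs, leaving out 1 array or 1 replicate number gave 0 to 10, the single arrays being an alternative chosen after seeing the data. Each test without 1 replicate number used 18 of 24 arrays, and why the counts of passing pairs differed was not tested.

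With the replicate number as a block, 21 genes were called at 12 h against 2 h, 4 at 24 h against 2 h, 23 at 24 h against 12 h, 19 at 96 h against 24 h, 30 in mature leaves, 27 in the F test and 8 paralogue pairs. Same-numbered arrays of different times had a median correlation of deviations of 0.0708 (−0.17 to 0.517; 23 of 60 above 0.1), against −0.0066 for different numbers (25 of 180 above 0.1), and 14 of 24 arrays correlated best with their own number. Replicate 1 was the highest array in the ribosomal RNA control at all 6 developing times. These values are a hint from the data that arrays of a number share something, but the labels name no shared batch and not every pair was above 0.1, so the block was kept as an alternative.

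The mean over several probe sets per gene was void, since each member had 1. The 60S list matched no tested locus, and protein identity and promoter motifs were not run. AT5G09500 (RPS15) and AT2G39590 (RPS15a) exceeded the 40th percentile on 0 of 26 arrays, with mean signals of 7.76 and 11.8, and their differences are not known at this signal. No scaling moved the median of all probe sets by over 0.1.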
